A study of Mus musculus with 30 samples.

Results

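The hearts described here came from old female C57BL6 mice, aged 12 months and taken at ZT22, the late night of the light cycle. Zeitgeber time (ZT) counts hours from lights on. Mice of the NR group had drunk water with nicotinamide riboside (NR) at 3 g/L from the age of 2 months, and mice of the water group had drunk water without NR. The strain label is C57BL6, and the study's methods describe a mixed background of the J and N substrains. The labels put 3 hearts in each group, which makes 6 of the 30 samples of the series, and each heart is 1 mRNA-seq library from 1 mouse. The labels name no transgene or deletion for any mouse, and age, sex, strain and time of day were the same in both groups. Per the study's methods, NR was given by cage, to randomized cages that held several mice. No cage is given for the hearts here, so hearts of 1 group may have shared a cage, and cage and NR cannot be told apart. The series also holds hearts of the same groups at ZT10, late in the day, hearts of young mice (2 months, water), and cultures of HL-1 cells, a mouse atrial muscle cell line, which were not used here. The question was which transcripts of the old heart differ at night after long intake of NR.

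NR is a form of vitamin B3. Cells take it up, and the NR kinases (Nmrk1, Nmrk2) phosphorylate it to nicotinamide mononucleotide, which the Nmnat enzymes turn into NAD+. NAD+ carries electrons in fuel oxidation and is consumed by sirtuins, PARPs and Cd38, and in heart muscle most of it is rebuilt from nicotinamide by Nampt. The heart holds cardiomyocytes together with endothelial cells, fibroblasts, pericytes, smooth muscle cells and resident macrophages, and a bulk library mixes the RNA of all of them.

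Libraries of the 6 hearts held between 3922137 and 7562215 counts, and those of all 18 hearts lay in the same range. Replicate 1 was the shallowest library of both groups, with 3922137 counts for water and 4364594 for NR, against 6122256 or more in the other 4. It also stood apart in composition: the chi-square per degree of freedom between replicate 1 and either other replicate was between 3.43 and 6.68, against 2.47 between water replicates 2 and 3 and 1.95 between NR replicates 2 and 3. Summed markers of ventricular cardiomyocytes (10 genes) were highest in replicate 1 of both groups, at 44412 and 42617 normalized counts, against 29382 to 32769 in the other 4 hearts. The 50 most abundant genes held 5.73% and 5.66% of the counts in replicate 1 of water and NR, against 4.65% to 4.95% in the other 4. Depth and composition thus went together, and whether the marker sums follow depth or tissue was not tested. The tissue label held against its markers, with no ventricular marker at 0 and the lung markers summing to between 9.40 and 16.5. No pair of libraries was identical. A normalized count is a count divided by the library's TMM-scaled size and multiplied by the mean of these sizes.

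Of 15443 genes tested, 54 were called between NR and water hearts at ZT22 (0.35%), 40 of them lower with NR (0.259%) and 14 higher (0.0907%). A gene was called where its p from the quasi-likelihood test of edgeR, adjusted by Benjamini-Hochberg over all genes tested, was under 0.05, and every adjusted p given here comes from that test. The lower genes had their largest changes in Tspan32, Gdf10 and Itga8 and included the macrophage genes Siglec1 and Csf1r, the complement genes C4b and C3, the matrix genes Postn and Col14a1 and the smooth muscle genes Acta2 and Myh11. The higher genes included Klf15, Pfkfb2, Acsl6 and Slc36a2, which act in metabolism. Changes were moderate, with absolute log2 fold changes between 0.30 and 1.40 among the lower genes and between 0.28 and 0.67 among the higher ones. The 2 groups of 3 hearts did not overlap for 39 of the 40 lower genes and for all 14 higher genes. Of all genes tested, 1120 did not overlap with NR lower (7.25%) and 1157 with NR higher (7.49%). Calls and overlap come from the same hearts, so the separation of the called genes largely follows from their being called and is no separate evidence. At an unadjusted p under 0.05, 773 genes were higher (5.01%) and 964 lower (6.24%). The median log2 fold change over all genes was 0.008.

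All 54 genes kept their direction in each of 16 other settings, but the number called moved with the settings and with single libraries. The settings reuse the same hearts, and groups that do not overlap can hardly change order, so the kept direction is no separate evidence. Without NR replicate 2 only C4b and Aebp1 stayed called, without water replicate 2 there were 14 calls, and without water replicate 3 there were 29, of which 20 were shared with the 54. An edgeR fit of the 6 hearts alone, without the spread of the other 12, called 2 genes, of which C4b was shared. C4b was called in all 16 settings. Leaving out both shallow replicate 1 libraries, a choice made after the data had been seen, gave 65 calls, 33 of them shared.

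**Figure D1:**
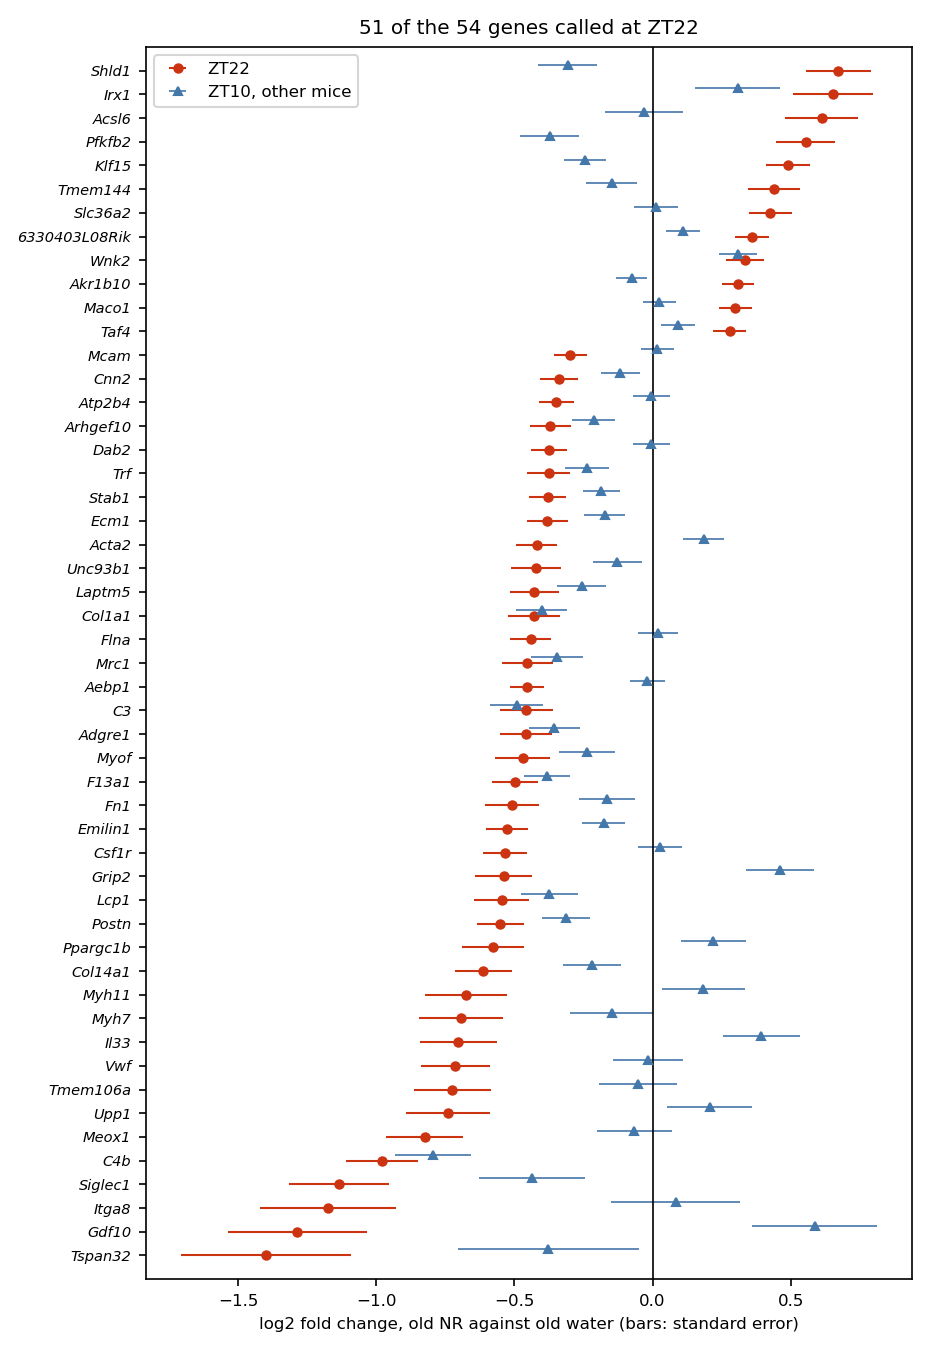
Log2 fold changes (x axis) of 51 of the 54 genes called at ZT22 (y axis), old NR against old water hearts. Circles give ZT22 and triangles ZT10, where other mice were compared, with bars of 1 standard error. The lower genes lie between -1.40 and -0.30 at ZT22. Many triangles lie nearer to 0, the genes having been picked by their ZT22 values.

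The complement genes C4b and C3 fell with NR. C4b (ENSMUSG00000073418, chromosome 17, 34728380 to 34743882, GRCm38), a component of the classical complement cascade, had 369, 444 and 524 normalized counts in the water hearts and 205, 236 and 241 in the NR hearts. All NR hearts lay below all water hearts, and C4b fell with NR (log2 fold change -0.98, standard error 0.13, adjusted p = 0.0024). Young hearts at ZT22 had 89.98, 128 and 109.7. The authors removed reads that map to several places, so that C4b was counted only where its sequence differs from its near-identical neighbour C4a. C3 (ENSMUSG00000024164, chromosome 17, 57203970 to 57228136), the hub of the cascade, had 2658, 2516 and 2718 in the water and 2041, 1853 and 1862 in the NR hearts, with no overlap (log2 fold change -0.46, standard error 0.097, adjusted p = 0.0375), and 1129, 1489 and 1096 in young hearts. At ZT10, in other mice, both were lower with NR as well and both were called, with a log2 fold change of -0.80 for C4b (adjusted p = 0.0227) and -0.49 for C3 (adjusted p = 0.0308). The C1q genes of macrophages, which start the classical cascade, had ZT22 log2 fold changes of -0.35 (C1qa), -0.38 (C1qb) and -0.35 (C1qc) and were not called.

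Siglec1 and 4 genes of the macrophage list fell with NR. Siglec1 (ENSMUSG00000027322, chromosome 2, 131069220 to 131086765), the sialic acid receptor CD169 of tissue macrophages, had 135, 106 and 136 normalized counts in the water and 48.3, 50.9 and 69.8 in the NR hearts. No NR heart reached the lowest water heart, and the change was larger than that of any gene of the macrophage list described next (log2 fold change -1.14, standard error 0.18, adjusted p = 0.00729). Csf1r (ENSMUSG00000024621, chromosome 18, 61100598 to 61132149), the receptor for the growth factor on which macrophages depend, had 596, 522 and 548 against 345, 369 and 424 (log2 fold change -0.53, standard error 0.079, adjusted p = 0.00403). The groups were again apart, and young hearts, at 417, 435 and 413, lay among or just above the NR hearts. Mrc1, the mannose receptor of resident macrophages, fell from 639, 560.5 and 626 to 439, 415 and 476 (log2 fold change -0.45, standard error 0.091, adjusted p = 0.0291). Adgre1, which encodes the F4/80 antigen, had 196, 170.1 and 175 against 132, 122 and 137 (log2 fold change -0.46, standard error 0.093, adjusted p = 0.0298). F13a1, the clotting factor subunit made by resident macrophages, had 847, 686 and 765 against 485, 526 and 598 (log2 fold change -0.50, standard error 0.083, adjusted p = 0.00864) and 349, 385 and 413 in young hearts. None of these genes overlapped between the groups.

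**Figure D2:**
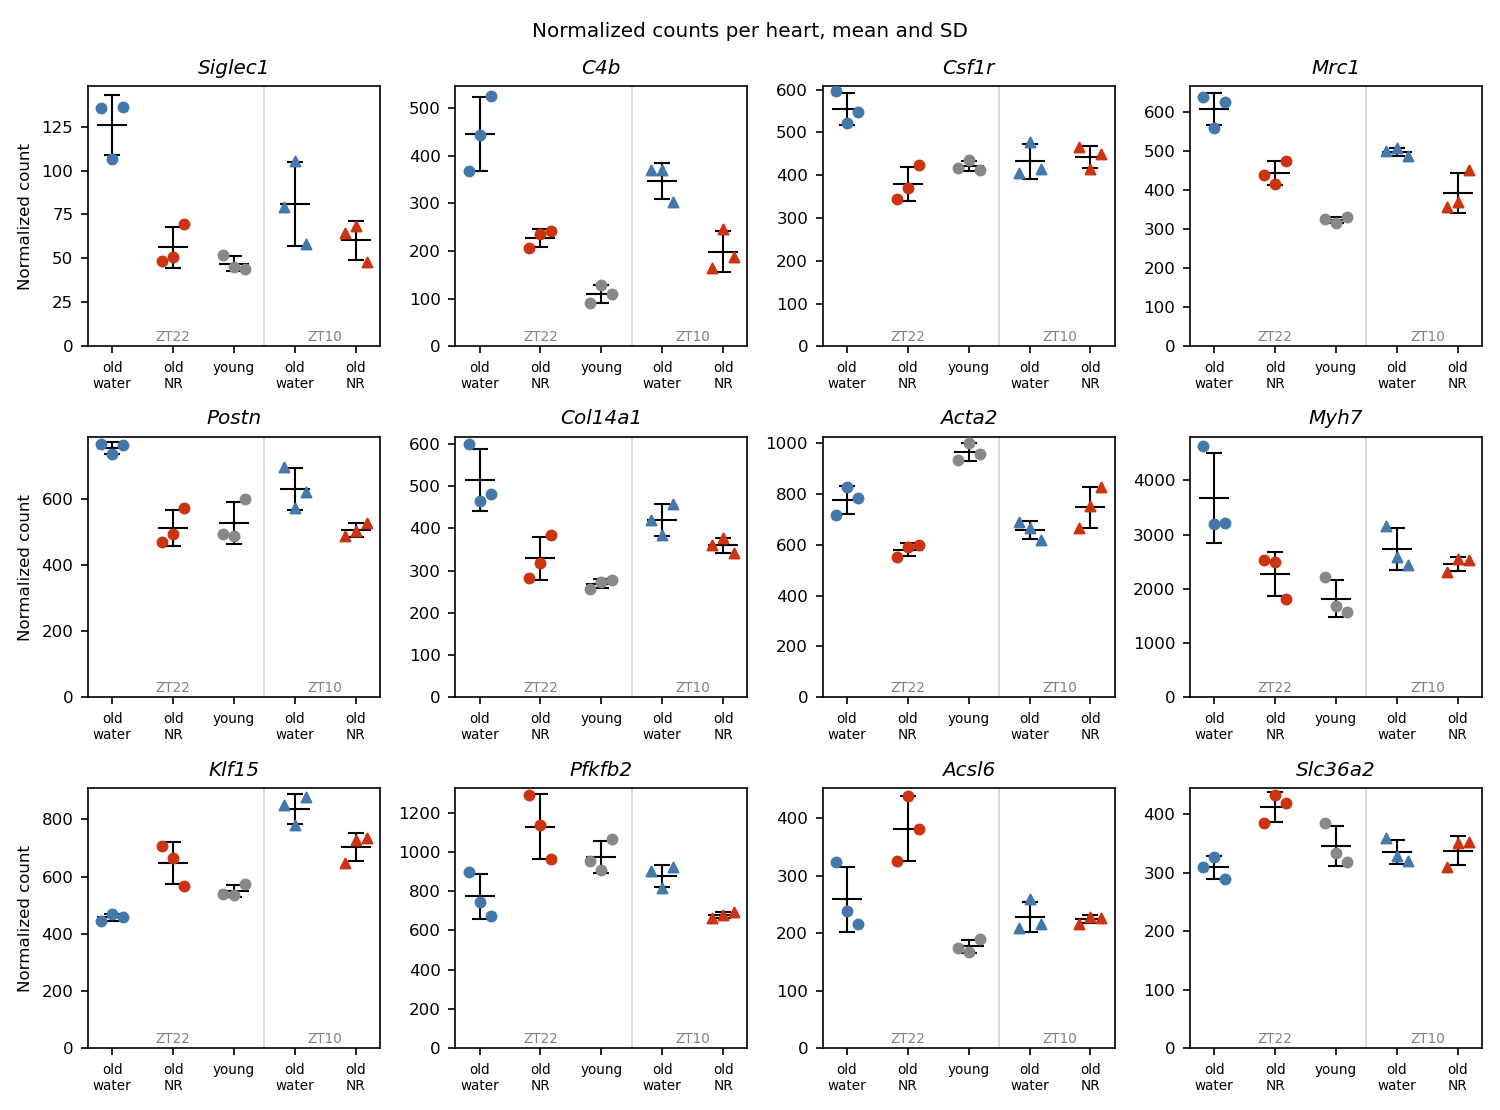
Normalized counts per heart (y axis, from 0) of 12 called genes in 5 groups of 3 hearts (x axis), with circles for ZT22, triangles for ZT10, and black bars for the mean and SD. At ZT22 every NR heart lies below every water heart for the 8 genes from Siglec1 to Myh7 and above for Klf15, Pfkfb2, Acsl6 and Slc36a2.

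Over the whole list of macrophage and antigen presentation markers, all 16 genes tested had a negative log2 fold change, 13 had an unadjusted p under 0.05 (6.24% of all genes did so in that direction) and 4 were called (0.259% of all genes). The list's median log2 fold change was -0.37, against 0.008 over all genes. Fcgr1, an antibody receptor, had a value of -0.74, Cd68, a lysosomal marker, -0.55, and Lyve1, a marker of resident macrophages, -0.46, none of them called. The class II genes were nearer to 0, with H2-Aa and H2-Ab1 both at -0.27 and Cd74 at -0.21, and Mertk, a receptor for dying cells, had -0.083. Summed over the list, water hearts held 6819, 6192 and 5950 normalized counts and NR hearts 5022, 4670 and 4976, without overlap, so that the mean of the NR hearts was 77.4% of that of the water hearts. Young hearts held 4475, 4595 and 5260. Without both replicate 1 libraries, 11 of the 16 genes had an unadjusted p under 0.05 with a lower value and 2 were called, with a median of -0.36. Leaving out 1 heart at a time kept all 16 negative, with 10 to 14 at that p and 0 to 4 called, 0 of them without NR replicate 2. In bulk RNA, fewer macrophages and less of these transcripts per macrophage cannot be told apart.

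Some other genes that blood-derived cells express were in the same direction, while the B and plasma cell and red blood cell lists were mixed. Lcp1, the actin bundler L-plastin of leukocytes, fell from 453, 407 and 397 to 269, 289 and 293 (log2 fold change -0.55, standard error 0.099, adjusted p = 0.014). Laptm5, a lysosomal membrane protein of leukocytes (-0.43), Unc93b1, a chaperone of endosomal Toll-like receptors (-0.42), Stab1, a scavenger receptor (-0.38), and Tspan32, a tetraspanin of blood cells (-1.40), were also called lower. Tspan32 was the gene with the largest change of all 54, but rested on few counts, with 16.5, 20.02 and 17.9 normalized counts in the water and 5.37, 7.49 and 7.14 in the NR hearts, and it lost its call in 12 of the 16 other settings. Of the neutrophil and monocyte markers, 6 were tested, all 6 had a negative log2 fold change (median -1.05) and 0 were called by edgeR. At an unadjusted p under 0.05, 4 of the 6 were lower (6.24% of all genes were lower and 5.01% higher at that p). The sum of all 9 counted markers of this list, tested or not, was 189.5, 267.5 and 299.9 normalized counts in the water and 92.7, 162 and 185 in the NR hearts. These low sums did not overlap, and Ccr2, the receptor that brings monocytes into tissue, had a log2 fold change of -0.80. The T and NK cell list had 5 genes tested, all negative, and 0 at an unadjusted p under 0.05. Of 8 B and plasma cell genes tested, 3 were positive and 5 negative, with 1 higher and 1 lower at that p. Of 8 red blood cell genes, 4 were positive and 4 negative, with 0 at that p.

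**Figure D3:**
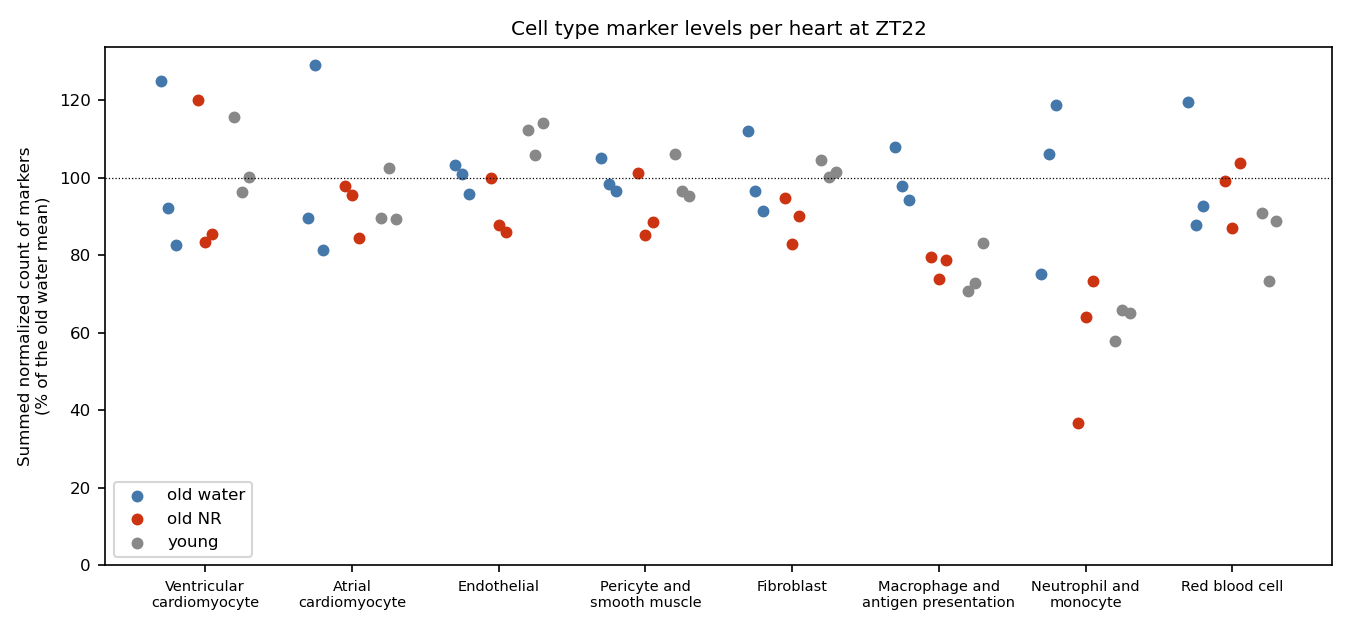
Summed normalized counts of 8 marker lists (x axis) per heart at ZT22, as a percentage of the mean of the old water hearts (y axis, from 0). For the macrophage list and, more narrowly, the neutrophil and monocyte list the 3 NR hearts lie below the 3 water hearts, while ventricular markers are high in replicate 1 of both groups.

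The extracellular matrix was the next group. Postn (ENSMUSG00000027750, chromosome 3, 54361109 to 54391037), the matricellular protein periostin of activated fibroblasts, had 766, 735 and 764 normalized counts in the water hearts and 469, 496 and 573 in the NR hearts. The water hearts were tightly grouped above the NR hearts (log2 fold change -0.55, standard error 0.085, adjusted p = 0.00559), and young hearts had 494, 488 and 599.8. Col14a1, a fibril-associated collagen (ENSMUSG00000022371, chromosome 15, 55307750 to 55520803), fell from 599, 464 and 481 to 283, 319 and 384 (log2 fold change -0.61, standard error 0.10, adjusted p = 0.00864). Fn1, fibronectin, had 924, 874 and 1045 against 777, 609 and 634 (log2 fold change -0.51, standard error 0.099, adjusted p = 0.0227). Col1a1, the main chain of type I collagen, had 1097, 915 and 952 against 730.5, 623 and 838 (log2 fold change -0.43, standard error 0.094, adjusted p = 0.0469), and young hearts, at 1376, 1438 and 1438, stood above both old groups. Itga8, an integrin subunit of mesenchymal cells, had 102, 250.20 and 189.9 against 67.1, 85.3 and 91.3 (log2 fold change -1.18, standard error 0.25, adjusted p = 0.0348), with water replicate 1 well below the other water hearts. Aebp1, a secreted collagen-binding protein, had 366, 363 and 371 against 263, 278 and 261, the most even values of the group (log2 fold change -0.45, standard error 0.062, adjusted p = 0.0024), and it kept its call whichever heart was left out. Emilin1, an elastic fibre glycoprotein (-0.53, adjusted p = 0.00325), and Ecm1 (-0.38, adjusted p = 0.0222) were called lower too.

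Among 33 collagens, laminins and integrins tested, 27 had a negative log2 fold change, 16 were lower at an unadjusted p under 0.05 (6.24% of all genes), 1 was higher (Lama5, 0.35), and 4 were called, all lower (0.259% of all genes). Their median was -0.19, and without both replicate 1 libraries it was -0.15, with 11 lower at that p and 4 called. With 1 heart left out, 11 to 17 were lower at that p and 0 to 4 were called, 0 without NR replicate 2 and 1 without water replicate 3. Col3a1 and Col1a2, the partners of Col1a1 in fibrils, had log2 fold changes of -0.39 and -0.36 and were not called, while the basement membrane genes Col4a1, Lamb1 and Lamc1 had -0.13, -0.093 and -0.079. The TGF-beta and matrix remodeling list had 34 genes tested and 0 called by edgeR, with 7 lower (6.24% of all genes) and 1 higher (5.01%) at an unadjusted p under 0.05 and a median of -0.12. Its members with the smallest p were Adamts2, which trims procollagens (-0.49, adjusted p = 0.0862), and Adamts15 (-0.43, adjusted p = 0.0993). Markers of fibroblasts were all 13 negative, with a median of -0.13, 6 at an unadjusted p under 0.05 and 1 called, Col1a1. With 1 heart left out, 10 or more of the 13 were negative and 0 to 2 were called. The 6 at that unadjusted p were not only collagens. Some other markers had smaller changes, for example Pdgfra at -0.15, Tcf21 at -0.083 and Dcn at -0.017, close to the upper end of the list (-0.016). The summed fibroblast markers overlapped, from 13413 to 16472 in the water and from 12161 to 13925 in the NR hearts.

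The smooth muscle genes Acta2 and Myh11 and the endothelial gene Vwf also fell. Acta2 (ENSMUSG00000035783, chromosome 19, 34241090 to 34255590), smooth muscle actin, had 718, 829 and 783 normalized counts in the water and 553, 593 and 598 in the NR hearts. The NR hearts were lower throughout (log2 fold change -0.42, standard error 0.074, adjusted p = 0.0111), and young hearts, at 935, 1002 and 957, were the highest. Myh11, smooth muscle myosin, had 557, 946 and 999.6 against 479, 579 and 528 (log2 fold change -0.67, standard error 0.15, adjusted p = 0.0497). It was the single called gene whose groups overlapped, with water replicate 1 below NR replicate 2. The list of 11 pericyte and smooth muscle markers was negative throughout, with 6 at an unadjusted p under 0.05 (6.24% of all genes were lower at that p), 2 called (0.259% of all genes) and a median of -0.21. With 1 heart left out, 8 to 11 were negative and 0 to 3 were called, 0 without water replicate 2 or NR replicate 2. The summed markers overlapped, from 11026 to 12019.6 normalized counts in the water and from 9735 to 11555 in the NR hearts. The contractile genes Cnn1, at -1.37, and Tagln, at -0.49, were not called, and the pericyte genes Rgs5, Kcnj8 and Abcc9 had values between -0.036 and -0.0036. Without both replicate 1 libraries the median was -0.26, with 3 called. Flna, an actin crosslinker (-0.44), Cnn2, calponin 2 (-0.34), Mcam, an adhesion molecule of vessel walls (-0.30), and Myof, a membrane repair protein (-0.47), were called lower as well. Vwf, the endothelial clotting protein, had 1163, 1852 and 1653 in the water and 948, 976 and 939 in the NR hearts (log2 fold change -0.71, standard error 0.13, adjusted p = 0.0111). It was the only called gene of 12 endothelial markers, whose median was -0.057, with Pecam1 at -0.062 and Cdh5 at -0.021. Water replicate 1 was the lowest water heart for Vwf, Myh11 and Itga8 alike.

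Among genes of heart muscle, Myh7 (ENSMUSG00000053093, chromosome 14, 54970684 to 54994626), the beta myosin heavy chain that rises in the stressed rodent heart, had 4644, 3199 and 3211 normalized counts in the water and 2524, 2491 and 1811 in the NR hearts. The groups did not overlap (log2 fold change -0.69, standard error 0.15, adjusted p = 0.0469), and young hearts had 2213, 1684 and 1571. Its sequence is close to that of Myh6, the adult alpha chain, which was not called (log2 fold change -0.15). The natriuretic peptide genes were not called at ZT22. Nppa had 245, 299 and 166 in the water and 227, 236 and 176 in the NR hearts (log2 fold change -0.14, standard error 0.20, adjusted p = 0.906), with the groups mixed. Nppb had 642, 478 and 399.9 against 314, 449 and 297 (log2 fold change -0.47, standard error 0.20, adjusted p = 0.378), where NR replicate 2 reached into the water range. The study reported both as lower with NR at ZT10, by ANOVA. In the edgeR test at ZT10, Nppa had 360, 316 and 428 against 210, 171 and 212 (log2 fold change -0.90, standard error 0.20, adjusted p = 0.0522). Its groups did not overlap there, but it was not called. Nppb was not called at ZT10 either (log2 fold change -0.19, adjusted p = 0.763). Of 17 stress and hypertrophy genes tested at ZT22, 2 were called, Myh7 and Postn (0.259% of all genes were called lower), and the median was -0.089. Of 28 sarcomere and Z-disc genes, Myh7 was the single call, 24 were negative and the median was -0.057. Ppargc1b, a coactivator of mitochondrial genes, fell from 436, 411 and 415 to 290.0, 236 and 321 (log2 fold change -0.58, standard error 0.11, adjusted p = 0.0248). Among 38 genes of fatty acid oxidation and PPAR targets it was the single call, and the median of that list was 3.4e-05. In that list 6 genes were lower (6.24% of all genes) and 0 higher (5.01%) at an unadjusted p under 0.05. Its values ran from -1.53 to 0.13. At ZT10, 0 were lower (4.51% of all genes) and 7 higher (5.62%) at that p. The 52 respiratory chain and ATP synthase genes lay between -0.048 and 0.092, with 0 called and 0 at an unadjusted p under 0.05.

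The rest of the lower genes with the largest changes were of mixed roles. Il33, an alarmin kept in the nuclei of stromal cells, fell from 152, 165 and 129 to 106, 77.9 and 92.1 (log2 fold change -0.70, standard error 0.14, adjusted p = 0.0255), and young hearts had 45.6, 56.3 and 56.4. Meox1 (ENSMUSG00000001493, chromosome 11, 101877510 to 101894374), a homeobox factor induced in activated fibroblasts, had 182, 177 and 194 against 126, 105 and 88.1 (log2 fold change -0.82, standard error 0.14, adjusted p = 0.00864), and young hearts, at 245, 239 and 238, were above both. Upp1, which cleaves uridine, had 79.7, 70.1 and 70.7 against 40.3, 50.2 and 38.9 (log2 fold change -0.74, standard error 0.15, adjusted p = 0.0315). Gdf10, a TGF-beta family ligand, had 24.1, 23.7 and 28.6 against 10.7, 8.98 and 11.9 (log2 fold change -1.29, standard error 0.25, adjusted p = 0.0248), at a low level. Tmem106a, a membrane protein, had 114, 127 and 130.0 against 83.3, 74.1 and 71.4 (log2 fold change -0.72, standard error 0.14, adjusted p = 0.0222). Also called lower were Grip2 (-0.54), Trf, transferrin (-0.38), Dab2, an endocytic adaptor (-0.37), Arhgef10 (-0.37) and Atp2b4, a plasma membrane calcium pump (-0.35).

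Genes of fuel use were among the 14 that rose. Klf15 (ENSMUSG00000030087, chromosome 6, 90462576 to 90475238), a zinc finger factor that drives lipid and amino acid use in heart muscle, had 444, 469 and 459 normalized counts in the water hearts and 709, 665 and 567 in the NR hearts. The water hearts were close together and every NR heart was above them (log2 fold change 0.49, standard error 0.079, adjusted p = 0.00815), and young hearts had 539, 535 and 574. Pfkfb2 (ENSMUSG00000026409, chromosome 1, 130689182 to 130729253), the cardiac enzyme that makes the activator of phosphofructokinase, had 898, 746 and 674 against 1290.4, 1134 and 962 (log2 fold change 0.55, standard error 0.11, adjusted p = 0.022). Acsl6, which activates long-chain fatty acids, had 323, 239 and 216 against 326, 439 and 382 (log2 fold change 0.61, standard error 0.13, adjusted p = 0.042). Slc36a2, an amino acid transporter, had 309.9, 328 and 289 against 384, 433 and 418 (log2 fold change 0.43, standard error 0.079, adjusted p = 0.0151).

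The promoters of Klf15 and Pfkfb2 are shown because they were the called genes that hold the letters CACGTG, the E-box to which Clock and Arntl bind, and that of Cnn2 because it was the called gene that holds a CArG box, the element of serum response factor in smooth muscle genes. Each is the 250 bases upstream of a RefSeq start on GRCm38.p6, written 5′ to 3′ on the gene's strand with the motif in capitals.
Klf15, chr6:90462326-90462575, + strand: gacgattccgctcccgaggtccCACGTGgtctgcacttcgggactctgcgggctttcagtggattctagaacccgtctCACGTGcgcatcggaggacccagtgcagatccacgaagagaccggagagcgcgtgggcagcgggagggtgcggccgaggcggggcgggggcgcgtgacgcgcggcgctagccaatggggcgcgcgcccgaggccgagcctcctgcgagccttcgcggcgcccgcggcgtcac
Pfkfb2, chr1:130715822-130716071, - strand: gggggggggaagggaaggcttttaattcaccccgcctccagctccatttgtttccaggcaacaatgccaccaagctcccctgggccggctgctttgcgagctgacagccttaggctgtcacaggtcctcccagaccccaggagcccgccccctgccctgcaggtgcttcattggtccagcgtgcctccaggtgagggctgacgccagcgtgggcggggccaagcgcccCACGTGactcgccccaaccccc
Cnn2, chr10:79988350-79988599, + strand: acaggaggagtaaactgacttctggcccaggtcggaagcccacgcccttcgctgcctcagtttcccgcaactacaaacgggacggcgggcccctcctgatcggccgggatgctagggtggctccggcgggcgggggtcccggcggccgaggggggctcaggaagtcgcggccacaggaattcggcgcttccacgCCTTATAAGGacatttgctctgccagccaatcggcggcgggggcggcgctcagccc
Of the 54 called genes, 34 had an entry in the promoter table, 9 of the higher and 25 of the lower ones. CACGTG, which is its own reverse complement, was in 2 of the 9 (22.2%) and in 0 of the 25, against 9.71% of the 11343 tested genes with an entry and 5 of 19 core clock genes (26.3%). The Klf15 window holds it at 2 places and the Pfkfb2 window at 1, from 1 of 3 listed starts. The CArG box was in 1 of the 25 (4%), against 1.4% of all. GAGGAAGT, a site for the leukocyte factor PU.1, was searched on both strands and was in none of the 34, against 2.87% of all. A match is only a stretch of letters, and binding was not measured.

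Among the other genes that rose were Shld1, a DNA repair factor, with 120.3, 176 and 165 against 286, 232 and 244 (log2 fold change 0.67, standard error 0.12, adjusted p = 0.0102), and Irx1, a homeobox factor, with 131, 109 and 104 against 204, 189 and 144 (log2 fold change 0.65, standard error 0.14, adjusted p = 0.0497). Tmem144 (0.44), 6330403L08Rik (0.36), Wnk2, a kinase of ion transport (0.33), Akr1b10, an aldo-keto reductase (0.31), Maco1 (0.30) and Taf4, a subunit of the general transcription factor TFIID (0.28), were called with smaller changes. Akr1b10 belongs to a cluster of similar genes on chromosome 6, and the split of reads among them is uncertain.

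Of 24 core clock genes tested, 7 were higher at an unadjusted p under 0.05 (5.01% of all genes) and 1 was lower, Nr1d1, and the median log2 fold change was 0.095. Of the 24, 1 was called, higher with NR (0.0907% of all genes), and is not reported here by name. Arntl, which encodes Bmal1 of the activating arm, had 335, 401 and 417 normalized counts in the water and 509, 457 and 489.7 in the NR hearts, without overlap, and was not called (log2 fold change 0.31, standard error 0.098, adjusted p = 0.183). Young hearts had 643, 737 and 602. Nr1d1, the repressor Rev-erb alpha, had 418, 344 and 362 against 263, 219 and 355 (log2 fold change -0.41, standard error 0.16, adjusted p = 0.303), with NR replicate 3 in the water range. Clock, the partner of Arntl, had 1133, 1088 and 974 against 866, 1027 and 1211, with a log2 fold change of -0.028. The repressors Per2 and Per3 had log2 fold changes of 0.044 and 0.075, and the output factor Dbp had -0.0038. The sign of Clock, Dbp, Per2 and Per3 turned in some of the other settings, so no direction is given for them. Rora, at 0.28, Cry1, at 0.23, and Cry2, at 0.20, were on the positive side and were not called.

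Genes of NAD+ metabolism were not called. The list for NAD+ synthesis from NR had 10 genes, which besides the NR kinases and Nmnat enzymes included the Slc29a transporters and Pnp. These 10, 9 of other routes, 15 consumers of NAD+, 7 sirtuins and 10 of nicotinamide clearance gave 0 calls by edgeR. Among the 51, 1 was higher (5.01% of all genes) and 3 were lower (6.24%) at an unadjusted p under 0.05. Nmrk2, the muscle NR kinase, had 189.5, 154 and 163 normalized counts in the water and 87.3, 146 and 125 in the NR hearts, just apart (log2 fold change -0.44, standard error 0.16, adjusted p = 0.268). Nmrk1, the widespread form, had 73.7, 61.9 and 78.5 against 68.5, 93.6 and 80.2, mixed between the groups (log2 fold change 0.20, standard error 0.16, adjusted p = 0.725). Nmnat1, the nuclear enzyme of the last step, had 286, 306 and 318 against 354, 341 and 352 (log2 fold change 0.19, standard error 0.064, adjusted p = 0.221), the smallest p of these lists. Its mitochondrial counterpart Nmnat3 had 0.12, Nampt 0.11, Naprt, which uses nicotinic acid, -0.20, and Nnmt, which methylates nicotinamide, -0.25. Among consumers, Cd38 had -0.038, and it turned positive without water replicate 2 or NR replicate 1. The sirtuins Sirt1 and Sirt3 had 0.17 and 0.10. Intervals were not narrow: with a standard error of 0.16 for Nmrk1 and 0.10 for Nampt, differences of moderate size lie within the error of these 3 hearts a group.

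**Figure D4:**
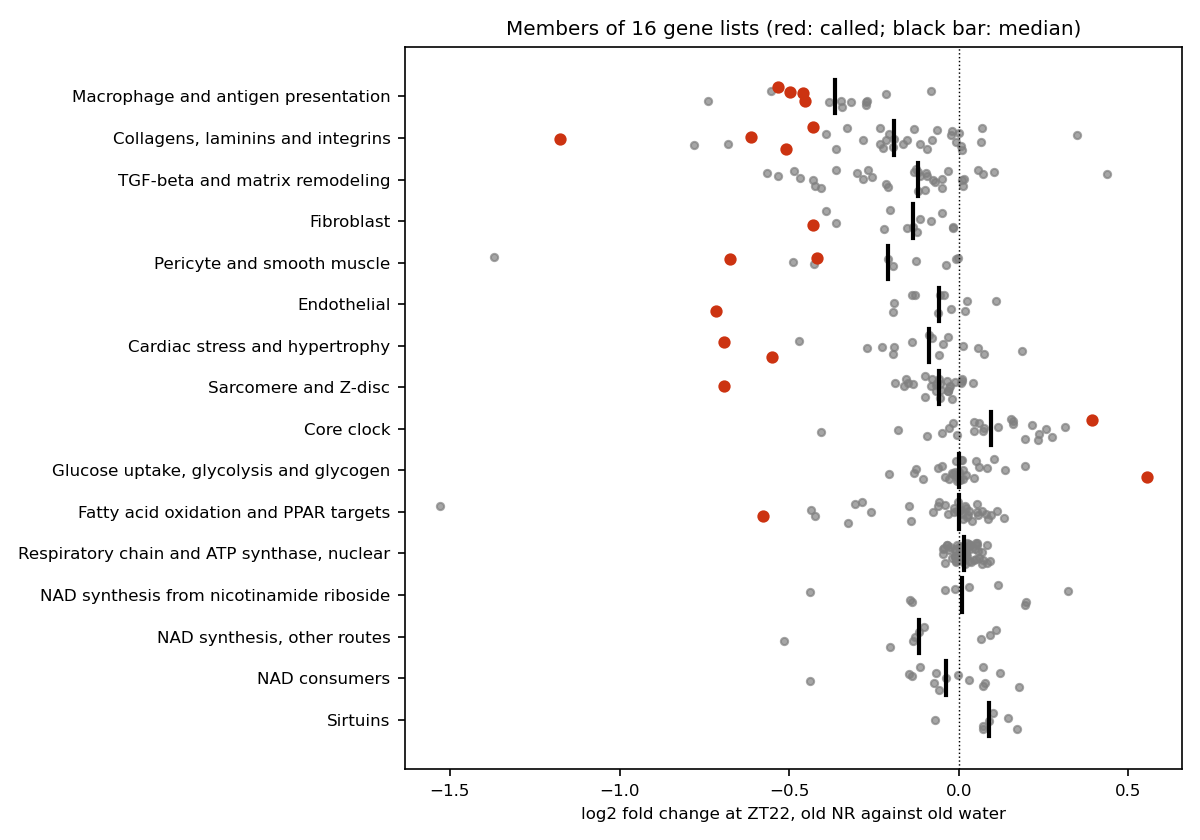
Log2 fold changes at ZT22 (x axis), old NR against old water, of each tested member of 16 lists (y axis), with called genes in red and the list median as a black bar. The macrophage median lies at -0.37 and the collagen median at -0.19, while the median of the respiratory chain list is 0.016 and its members stay within -0.048 to 0.092.

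Most other lists of pathways held no call. Of 29 genes of glucose uptake, glycolysis and glycogen, Pfkfb2 was the single call, and of 30 genes of insulin, mTOR, AMPK and FOXO signaling, Klf15 was. Over all genes, 6.24% were lower and 5.01% higher at an unadjusted p under 0.05. The immediate early genes had 24 tested and 0 called by edgeR, with 3 at that p, all lower, and a median of -0.13. Of those, Fos, a gene induced within minutes of a stimulus, had 39.1, 49.1 and 62.1 in the water and 30.9, 23.2 and 39.7 in the NR hearts (log2 fold change -0.73, standard error 0.35, adjusted p = 0.433). Among 22 ER chaperone and unfolded protein response genes 18 were negative and 0 were called by edgeR, with 3 lower and 1 higher at that p. The 26 autophagy, lysosome and atrophy genes had 21 positive values, and the 30 proteasome genes 25, with medians of 0.045 and 0.039, 0 called by edgeR and 1 in each at that p. The 30 interferon response genes had a median of -0.024, 0 called by edgeR and 1 at that p. Of the ion channels, the pacemaker channel Hcn4 came nearest to a call, with 197, 219 and 179 against 251, 309.9 and 250.01 (log2 fold change 0.46, standard error 0.11, adjusted p = 0.0688). Kcne1, a potassium channel subunit, had 271, 202 and 104 against 88.6, 109 and 73.8 (log2 fold change -1.01, standard error 0.27, adjusted p = 0.113), with the water hearts far apart from each other.

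At ZT10, in 6 other old mice, the same comparison called 44 genes (0.285%). Of the 40 genes called lower at ZT22, 29 were lower with NR at ZT10 (72.5%, against 49.8% of all genes with the same sign at both times), 17 of them at an unadjusted p under 0.05 (4.51% of all genes were lower at that p at ZT10), and 2 were called there, C4b and C3. Their median log2 fold change was -0.50 at ZT22 and -0.14 at ZT10. Of the 14 genes called higher, 8 had the same sign at ZT10, 3 of them at an unadjusted p under 0.05 (5.62% of all genes), with medians of 0.43 and 0.018. Both sets were picked by their ZT22 values, so their smaller medians at ZT10 cannot be read as a smaller effect there. The macrophage list had a median of -0.20 at ZT10, with 7 of 16 lower at that p, and the fibroblast list -0.23, while the pericyte and smooth muscle list had 0.17.

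Whether the effect of NR differed between the times was tested as an interaction, which was called for 53 of all genes (0.343%), among them 7 of the 40 lower genes and 4 of the 14 higher genes. The interaction includes the ZT22 difference by which these genes were called, so their share cannot be set against that of all genes. Csf1r, with 405, 479 and 414 normalized counts in water and 465, 415 and 449 in NR hearts at ZT10, was apart at ZT22 only (interaction -0.56, standard error 0.11, adjusted p = 0.0244). Acta2 had 689, 667 and 618 in water and 666, 751 and 826 in NR hearts at ZT10, where the groups overlapped (interaction -0.60, standard error 0.10, adjusted p = 0.0133). Il33 had 102, 114 and 101.12 against 142, 135 and 141 at ZT10, with the NR hearts above the water hearts (interaction -1.10, standard error 0.20, adjusted p = 0.0155). Of the genes that rose at ZT22, Klf15 was at 849.8, 780.1 and 879.9 in water and 647, 729.6 and 736 in NR hearts at ZT10 (interaction 0.73, standard error 0.11, adjusted p = 0.00562), so that the distance between the times was smaller with NR. Pfkfb2 had 900.0, 814 and 921 against 661, 678 and 693 at ZT10, with the NR hearts below the water hearts (interaction 0.93, standard error 0.15, adjusted p = 0.00925). Shld1 had 321, 318 and 344 against 257, 264 and 272 at ZT10, again with the NR hearts below (interaction 0.98, standard error 0.16, adjusted p = 0.00897). None of Csf1r, Acta2, Il33, Klf15, Pfkfb2 and Shld1 was called at ZT10 itself. Klf15, Pfkfb2, Shld1 and Grip2 kept the called interaction in all 22 other settings.

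Of the genes with a called interaction, 42 were not called at ZT22. Nmrk2 and Arntl are given from these because they were among the genes to be named whatever their values, and neither was called at ZT10. Nmrk2 had 109.7, 112 and 112 normalized counts in the water and 164, 214 and 173 in the NR hearts at ZT10, the NR hearts being above the water hearts there and below them at ZT22 (interaction -1.17, standard error 0.22, adjusted p = 0.0201). Arntl, near its daily low at ZT10, had 38.5, 36.5 and 53.5 in water and 13.1, 26.1 and 21.01 in NR hearts there, and stood at 335, 401 and 417 against 509, 457 and 489.7 at ZT22, so that its values were farther apart between the times in NR hearts (interaction 1.36, standard error 0.26, adjusted p = 0.0201). In neither gene did the groups overlap at either time. C4b, C3, Mrc1 and F13a1 gave no called interaction.

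**Figure D5:**
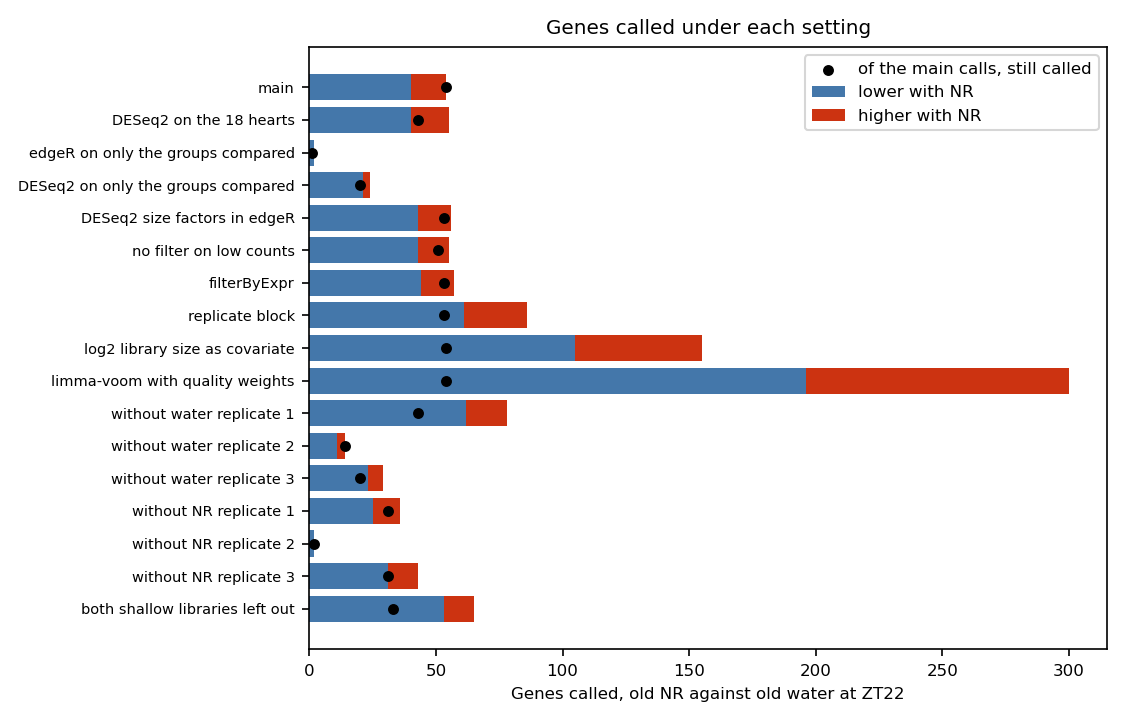
Genes called between old NR and old water hearts at ZT22 (x axis, from 0) under each of 17 settings (y axis), lower genes in blue and higher genes in red, with black points for how many of the 54 main calls were called again. The bars run from 2 genes, in the fit of the 6 hearts alone and without NR replicate 2, to 300 with limma-voom quality weights.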

How the data were processed

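mRNA-seq was made from whole hearts, 3 libraries in each of 6 groups. Reads were trimmed (Trimmomatic 0.39), aligned to mm10 (STAR 2.7.10a), freed of duplicates (Picard 3.0.0) and counted over genes (featureCounts 2.0.4), per the labels' processing notes. The authors deposited counts without normalization and a second table of normalized counts, a score that equals the counts divided by size factors. The names of both tables are swapped, and only the counts were tested. The strand setting of the counting is not given in the sources used here. HL-1 files were not used here.

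The 18 hearts were fitted together with edgeR 4.0.16 in R 4.3.3 (TMM, quasi-likelihood test, two-sided) over the 15443 of 20764 genes with an average count over 5. The fit drops or imputes no sample. With 3 hearts a group an exact permutation test cannot go below p = 0.1. Alternatives were DESeq2 1.42.0, limma 3.58.1 (voom with quality weights), other normalization and filters, a replicate block, library size as a covariate, fits of only the groups compared, and each heart left out. Positions are from GENCODE M21 (GRCm38), where 20737 genes were found, and promoters from RefSeq. The test of the ZT22 comparison was tested on simulated data with edgeR, DESeq2 and limma. The genes named are the 12 largest calls in each direction with a mean of at least 20 normalized counts and groups that do not overlap, called members of lists (or, in pathway lists with none, up to 2 with the smallest p), and 18 fixed genes; other genes were named after their values were seen. Some called genes are counted but not reported here by name. The groups, members and lists were chosen with earlier results of these data known.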

Additional observations from a re-analysis of the deposited data

Results flagged for a closer look

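Each gene here was singled out because the effect of NR differed between ZT22 and ZT10 by the interaction term of edgeR (Benjamini-Hochberg adjusted). The value is the log2 fold change of NR against water at ZT22 minus that at ZT10, over 3 hearts in each of 4 groups. Of the genes called lower at ZT22, it was -1.87 for Gdf10, -1.10 for Il33, -1.0001 for Grip2, -0.80 for Ppargc1b, -0.60 for Acta2, -0.56 for Csf1r and -0.43 for Aebp1. Grip2, a scaffold protein, had 205, 243 and 222 normalized counts in the water and 317, 319 and 289 in the NR hearts at ZT10, and 599, 698 and 734 against 440.4, 471 and 492 at ZT22, so the order of the groups turned without overlap at either time. Gdf10 had 17.5, 22.1 and 18.6 against 28.3, 31.01 and 28.7 at ZT10 and also turned. Of the genes called higher at ZT22, the value was 0.98 for Shld1, 0.93 for Pfkfb2, 0.73 for Klf15 and 0.38 for Akr1b10. For the genes not called at ZT22 it was -1.17 for Nmrk2 and 1.36 for Arntl. Over 22 other settings all 13 kept their direction, and the interaction of Akr1b10 missed the threshold in 14, of Aebp1 in 11, of Ppargc1b in 8 and of Csf1r in 6. The 13 were picked for a called interaction in these same hearts, so their kept direction is no separate evidence.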

How the results depend on the processing

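The number of genes called between NR and water hearts at ZT22 was 54, and it was 2 in the edgeR fit of only the groups compared (1359 at an unadjusted p under 0.05), 24 with DESeq2 on the same 6 hearts (20 shared), 155 with library size as a covariate and 300 with limma-voom quality weights, both of which called all 54. Leaving out 1 heart gave 2 to 78 calls. DESeq2 on the 18 hearts (55), DESeq2's size factors (56), no filter (55) and filterByExpr (57) stayed near 54. The interaction, with 53 calls, had 96 with the covariate, 162 with quality weights and 89 without both replicate 1 libraries, an alternative added after the data had been seen; leaving out 1 heart gave 15 to 78 calls, with 26 without water replicate 1, 15 without water replicate 3 and 22, 31 and 29 without NR replicates 1, 2 and 3 at ZT10, and 35 without NR replicate 2 at ZT22. With the replicate number as a block (replicate block) 86 genes were called at ZT22 and 77 by interaction. The labels number the hearts without naming a batch. Same-numbered hearts deviated from their group means with correlations of 0.27, 0.062 and 0.117. Pairs with unlike numbers ran from -0.296 to 0.282, the highest being NR replicate 2 with water replicate 3. These few correlations cannot decide whether same-numbered hearts shared a batch. All 54 called genes kept their direction throughout, which was largely set by their being called on these same hearts. The medians of the macrophage, collagen, fibroblast and smooth muscle lists kept theirs as well. With 1 heart left out these medians lay from -0.42 to -0.34, -0.22 to -0.12, -0.20 to -0.13 and -0.26 to -0.15. Uncalled genes near 0 changed sign. Clock reached 0.0021 and Per2 -0.089 with quality weights, and Dbp 0.025 with the covariate. Without both replicate 1 libraries Hspa8 was at 0.092, Cd38 at 0.011, Clock at 0.12, Dbp at 0.085 and Per2 at -0.16. With 1 heart left out the values ran from -0.38 to 0.021 for Hspa8, -0.38 to 0.10 for Nppa, -0.099 to 0.032 for Cd38, -0.16 to 0.071 for Clock, -0.19 to 0.11 for Dbp, -0.10 to 0.13 for Per2, -0.025 to 0.14 for Suclg2, -0.051 to 0.14 for Per3, -0.0084 to 0.16 for Ndufs3 and -0.034 to 0.20 for Ndufs4. The cause of these shifts was not tested. Totals of 3922137 to 7562215 counts limit the precision for low genes such as Tspan32 and Gdf10.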

Other observations

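Markers of other tissues and cells were tested at ZT22 as well, and 0 of them were called by edgeR. The atrial list, with 15 genes, had a median log2 fold change of -0.082 and 0 genes at an unadjusted p under 0.05, and its sum was 5707 to 9073 normalized counts in the water and 5939 to 6874 in the NR hearts, highest in water replicate 2. At ZT10 its median was -0.70, with 10 genes lower at that p (4.51% of all genes) and 3 called (0.285% of all genes). The 8 red blood cell genes had a median of -0.014, the 8 white adipocyte genes -0.22, the 6 brown adipocyte genes 0.0053, the 7 skeletal muscle genes 0.044, the 8 B and plasma cell genes -0.10 and the 8 Schwann cell and neuron genes -0.013. Of these 6 lists, 3 genes were lower and 2 higher at an unadjusted p under 0.05. The lung, thymus and epicardium lists had 2 genes tested each, none at that p. Of the pathway lists not described above, the 48 cytosolic ribosomal protein genes lay between -0.13 and 0.085 with 0 at that p. The 30 cell cycle genes had a median of -0.025 at ZT22, against -0.37 at ZT10, where 11 were lower at that p (4.51% of all genes). The 31 genes of cholesterol and fatty acid synthesis had 4 higher (5.01% of all genes) and 1 lower (6.24%) at that p at ZT22, with Hmgcs1 at 0.24 and Fads2 at -0.30. The lists of the TCA cycle, heat shock, ATF4 targets, potassium channels, calcium handling and pacemaker channels, beta-adrenergic signaling, p53 targets and antioxidant genes had medians between -0.029 and 0.047 and 0 calls by edgeR, with 10 list members higher and 10 lower at that p.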
